A study of Mus musculus with 30 samples.

Results

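AP-1 is a family of dimeric transcription factors built from Fos and Jun proteins and from related proteins such as Atf3. The genes described here are Fos, Fosb, Fosl1 and Fosl2 of the Fos family, Jun, Junb and Jund of the Jun family, and Atf3. They were chosen by gene symbol and not by a cutoff on measured values, though earlier results of these data were known. They are 8 of the 52550 genes in the deposited count table. All 8 passed the filter on low counts, which left 15587 genes for testing.

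Total RNA was measured in cardiac myocytes of mice in 30 libraries, 5 in each of 6 groups. Myh6-Cre:DspW/F mice were exercised and aged 6 months, of regular activity and aged 6 months, or of regular activity and aged 3 months, and each of these groups has a wild type group of like age and activity. The exercise was endurance running on a treadmill, for which the design text gives 3 months without stating whether this is its length or the time since it ended. Myh6-Cre:DspW/F mice are called heterozygotes below, and libraries are numbered within their group. Cre under the Myh6 promoter acts in heart muscle cells, and the Dsp product desmoplakin is a desmosome protein that binds intermediate filaments. It is not stated whether wild type mice carry Cre, whether the 5 libraries of a group come from separate animals, or what sex the animals were, so p-values measure the spread between these libraries. In bulk RNA, fewer cells of a type and less RNA per cell cannot be told apart.

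Fos proteins bind DNA with a partner such as a Jun protein, whereas Jun proteins also pair with each other. Several members are immediate early genes: their promoters are kept ready, and their short-lived mRNAs rise and fall quickly after growth factor, calcium, stretch or stress signals that reach them through MAP kinases, SRF, Elk and CREB proteins. In the heart the family is known for its induction by acute load and by ischaemia, and isolation of living cells is also known to induce it.

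Libraries held 11232143 to 23710331 counts. All 10 cardiac myocyte markers had reads in every group, with a summed level of 68538 to 111522 CPM (counts scaled to TMM-adjusted library size) over the 30 libraries, and the labelled cell type was in that sense present. The 8 fibroblast markers summed to 87.8 to 625 CPM and the 9 macrophage and monocyte markers to 12.7 to 132 CPM, with the highest value of both in exercised heterozygote 4. The endothelial markers summed to 223 to 1247 CPM and the pericyte and smooth muscle markers to 289 to 1106 CPM. The highest value of both these sums was in exercised wild type 1. Exercised heterozygote 4, exercised wild type 1 and heterozygote 4 at 3 months stood apart from their groups on principal components. Dsp averaged 848 ± 90.5 CPM in exercised heterozygotes and 1561 ± 428 CPM in exercised wild type (SD, n = 5 each; log2 fold change -0.88 ± 0.19 SE, edgeR adjusted p = 0.0287). At 6 months with regular activity it averaged 626 ± 41.1 CPM in heterozygotes and 784 ± 173 CPM in wild type (log2 -0.33 ± 0.19, edgeR adjusted p = 0.657), and at 3 months 765 ± 213 CPM in heterozygotes and 1079 ± 295 CPM in wild type (log2 -0.50 ± 0.19, edgeR adjusted p = 0.312). Over 100 Xist reads were counted in 1 of 5 exercised libraries, 2 of 5 regular-activity libraries at 6 months and 3 of 5 at 3 months, in both genotypes. Wild types 2 and 5 at 6 months and wild type 4 at 3 months also had over 30 Y-linked reads. Exercise in wild type is therefore given with and without them. For other comparisons the signs that turned without them are given.

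The set of RefSeq promoters used here, on GRCm38.p6, covers 7 of the 8 members and has no entry for Fosl1. The 250 bases before the RefSeq start are shown, 5′ to 3′ on the gene's strand, for the 4 members whose promoter holds TGACG, which is part of the CREB and ATF site TGACGTCA. TGACG, or its reverse complement CGTCA, is in capitals. Coordinates are chr12:85473640-85473889 (plus strand) for Fos, chr7:19310046-19310295 (minus strand) for Fosb, chr8:84978749-84978998 (minus strand) for Junb and chr1:191183334-191183583 (minus strand) for Atf3.
Fos: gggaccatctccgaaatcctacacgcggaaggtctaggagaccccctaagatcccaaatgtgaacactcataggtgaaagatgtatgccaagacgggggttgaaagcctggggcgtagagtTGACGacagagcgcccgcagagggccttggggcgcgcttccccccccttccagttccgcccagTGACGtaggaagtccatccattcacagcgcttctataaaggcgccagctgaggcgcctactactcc
Fosb: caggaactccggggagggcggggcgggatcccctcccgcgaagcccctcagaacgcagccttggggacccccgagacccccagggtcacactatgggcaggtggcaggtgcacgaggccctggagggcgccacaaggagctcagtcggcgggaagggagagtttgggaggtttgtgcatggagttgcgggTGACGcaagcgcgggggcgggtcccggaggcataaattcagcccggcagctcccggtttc
Junb: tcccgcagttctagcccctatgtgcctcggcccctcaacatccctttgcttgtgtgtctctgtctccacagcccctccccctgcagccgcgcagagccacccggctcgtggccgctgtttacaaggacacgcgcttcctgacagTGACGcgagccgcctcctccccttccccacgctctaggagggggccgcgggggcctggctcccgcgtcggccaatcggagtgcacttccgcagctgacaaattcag
Atf3: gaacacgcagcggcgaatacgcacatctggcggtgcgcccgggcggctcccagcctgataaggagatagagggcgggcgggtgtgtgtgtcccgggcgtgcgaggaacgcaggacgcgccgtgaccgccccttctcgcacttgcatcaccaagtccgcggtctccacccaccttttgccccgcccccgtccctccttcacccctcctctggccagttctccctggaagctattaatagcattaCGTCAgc
Fos held TGACG at 2 places, beginning 129 and 66 bases before the start, Fosb at 60, Junb at 106, and Atf3 on the opposite strand at 7 bases. The motif, searched on both strands, was present in 4 of 7 member promoters and in 17.8% of all 32851 RefSeq promoters of this length. The whole site TGACGTCA was found in 0 of 7 (1.55% of all promoters), the variant TGACATCA in 1, Jun (2.93%), the AP-1 site TGANTCA in 0 (6.75%), the CArG box of SRF in 0 (1.47%) and TATAAA in 1, Fos (12.4%). TGACG lies within TGACGTCA, so these searches overlap, and a match is a description of letters in this window. Sites outside the window were not searched, and the part of any match in the measured levels was not tested. The Jund window ends at chr8:70697738, whereas GENCODE starts the gene at 70698949. Windows of Atf3 and Fosl2 lie inside the GENCODE spans of these genes.

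Levels were compared between members as CPM per kb of annotated exon. Fos was the highest member in all 6 groups, at 53.1 ± 14.5 CPM per kb in exercised heterozygotes, 82.1 ± 38.5 in exercised wild type, 121 ± 28.2 in heterozygotes and 197 ± 60.7 in wild type at 6 months with regular activity, and 185 ± 71.8 in heterozygotes and 153 ± 53.9 in wild type at 3 months (SD, n = 5 each). Its range did not overlap that of the next member in 1 group, wild type at 6 months with regular activity. Jun and Junb came next without exercise, with overlapping ranges in all 4 groups. Jund, the Jun protein gene usually described as constitutive, and Atf3, a stress-induced gene whose product represses many promoters as a homodimer, followed. Fosb and Fosl2 lay between 2.29 and 8.30 CPM per kb in the group means, and their ranges overlapped in 5 of 6 groups, exercised wild type being the exception. Fosl1 was the lowest in all groups, at 0.284 to 0.595 CPM per kb, from 49 to 131 counts in a whole group of 5.

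**Figure D1:**
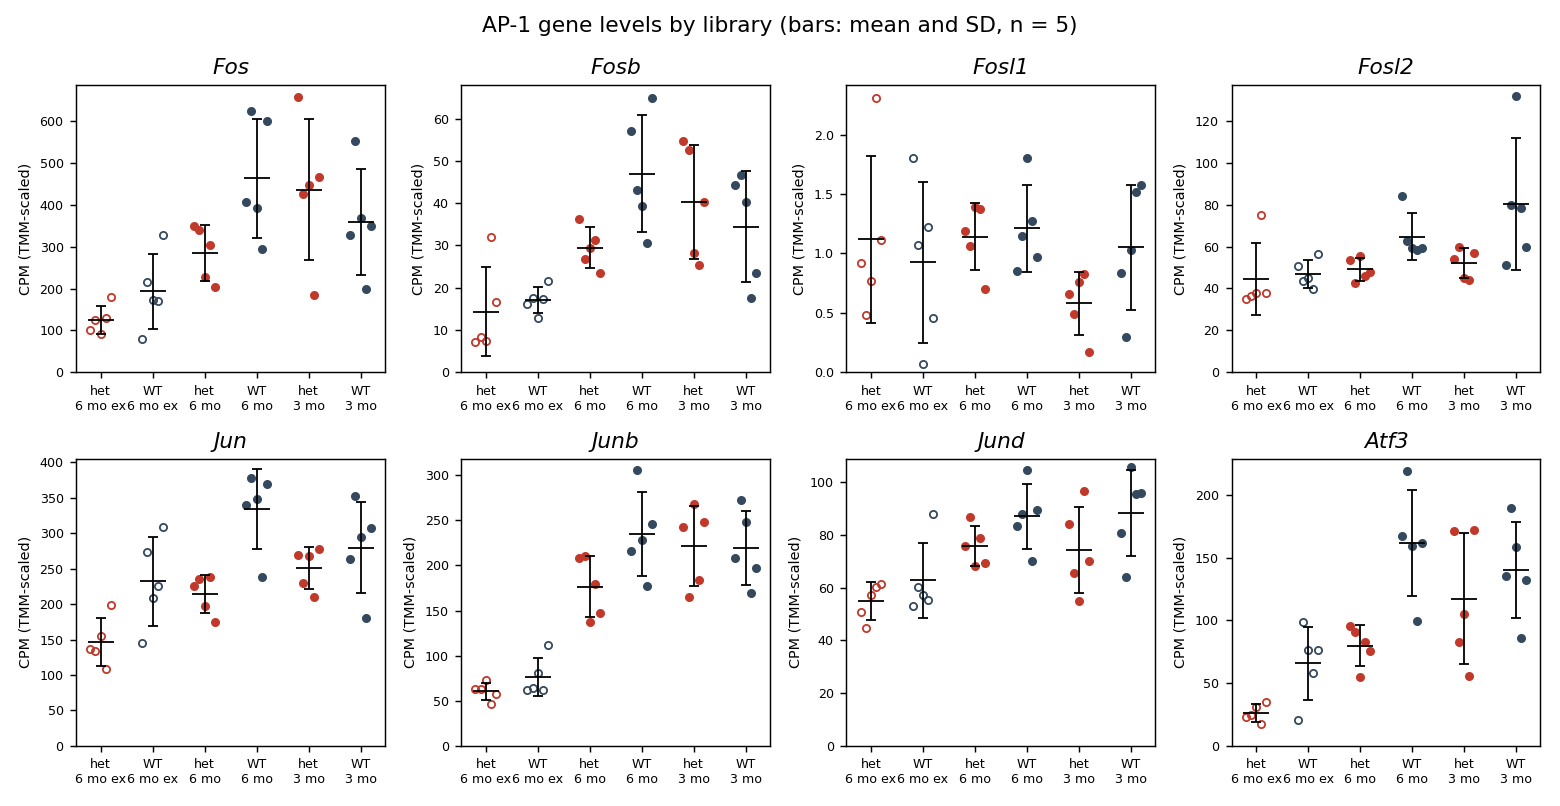
Level of each AP-1 gene in each library (vertical axis, CPM on TMM-scaled library sizes, from 0) by group (horizontal axis; het, heterozygotes; WT, wild type; mo, months; ex, exercised). Points are libraries, with open points for exercised ones, and bars give the mean and SD of 5. Junb lies between 46.1 and 111 CPM in the 10 exercised libraries and between 137 and 305 CPM in the other 20.

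Exercise was set against regular activity at 6 months in each genotype. In heterozygotes 5 of 8 members fell (Atf3, Junb, Fos, Jun and Jund) and 0 rose, where 3.48% of all tested genes fell and 5.34% rose at an edgeR adjusted p under 0.05. In wild type 5 of 8 fell (Junb, Fosb, Atf3, Fos and Jund) and 0 rose, where 5.05% of all tested genes fell and 4.64% rose. The median log2 fold change of the 8 was -0.79 in heterozygotes and -0.90 in wild type, beside 0.00 and 0.01 over all tested genes. There were 4 members, Fos, Junb, Jund and Atf3, that fell in both genotypes, as did 303 of the 15587 tested genes. Samples of exercised mice hold 0 spike-in controls with a deposited value, against 11 to 18 in those of regular activity at 6 months and 3 in those of 3 months, so exercise and whatever differs between these sets of deposited values cannot be told apart; no label names a batch. Without the libraries with over 100 Xist reads, edgeR called 617 of all tested genes in either direction in heterozygotes, against 1375 with them. In wild type the count of this fit is not given here. The alternative fits called 642 to 2769 genes there in either direction, against 1511 in the main fit. Without the libraries with over 100 Xist reads, 3 members passed the test in heterozygotes (Fosb, Fosl2 and Junb) and 4 in wild type (Fosb, Fosl2, Junb and Jund). The log2 fold changes of those called only with these libraries were then -1.11 for Fos, -1.44 for Atf3, -0.39 for Jun and -0.45 for Jund in heterozygotes, and -1.20 for Fos and -1.18 for Atf3 in wild type.

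Junb (ENSMUSG00000052837, chr8:84974484-84978718, minus strand; gene locations are GENCODE M21 on GRCm38) pairs with Fos proteins and is known as a weaker activator than Jun. It had 63.0, 62.5, 72.9, 46.1 and 57.0 CPM in exercised heterozygotes, against 208, 210.0, 137, 179 and 147 CPM in heterozygotes with regular activity. Wild type had 62.1, 64.4, 80.7, 62.0 and 111 CPM in exercised libraries, against 216, 305, 228, 178 and 246 CPM in libraries with regular activity. Neither genotype's exercised libraries reached any of its regular-activity libraries. The log2 fold change was -1.55 ± 0.18 in heterozygotes (edgeR adjusted p = 1.87e-06) and -1.62 ± 0.18 in wild type (edgeR adjusted p = 1.45e-06), about 0.342 and 0.324 times the regular-activity level. The call held in all 20 alternatives in heterozygotes and in all 21 in wild type. Exons of Junb overlap those of Prdx2 on the opposite strand, and the strand setting of the counting is not given in the sources used here. Prdx2 itself, with 140759 counts over 30 libraries, had a log2 fold change of -0.50 ± 0.14 in heterozygotes (edgeR adjusted p = 0.0203) and -0.23 ± 0.14 in wild type (edgeR adjusted p = 0.337).

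Atf3 (ENSMUSG00000026628, chr1:191170296-191218039, minus strand) had 22.9, 24.3, 30.9, 17.3 and 35.2 CPM in exercised heterozygotes, against 95.6, 91.0, 54.8, 82.6 and 75.3 CPM in heterozygotes with regular activity. Wild type values were 20.5, 98.3, 76.0, 57.9 and 76.2 CPM in exercised libraries, against 167, 219, 159.5, 99.4 and 162 CPM with regular activity. The groups did not overlap in either genotype, although the highest exercised wild type (98.3 CPM) lay just under the lowest with regular activity (99.4 CPM). The log2 fold change was -1.61 ± 0.34 in heterozygotes (edgeR adjusted p = 0.00315) and -1.29 ± 0.33 in wild type (edgeR adjusted p = 0.0127). Without the libraries with over 100 Xist reads the adjusted p of edgeR was 0.111 in heterozygotes and 0.185 in wild type, at log2 -1.44 and -1.18.

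Fos (ENSMUSG00000021250, chr12:85473890-85477273, plus strand), whose product is the classical partner of Jun, had 102, 124, 91.6, 128 and 179.5 CPM in exercised heterozygotes, against 350.6, 341, 228, 304 and 204 CPM in heterozygotes with regular activity. In wild type it had 77.9, 216, 173, 170.5 and 328 CPM in exercised libraries, against 407, 626, 393, 295 and 600.1 CPM with regular activity. The heterozygote groups did not overlap, and in wild type 1 exercised library (328 CPM) exceeded 1 library with regular activity (295 CPM). The log2 fold change was -1.19 ± 0.33 in heterozygotes (edgeR adjusted p = 0.0237) and -1.27 ± 0.33 in wild type (edgeR adjusted p = 0.0149). Without the filter on low counts the edgeR adjusted p in heterozygotes was 0.0540, and without the libraries with over 100 Xist reads it was 0.120 in heterozygotes and 0.0888 in wild type. Leaving out 1 library at a time kept the Fos call in 7 of 10 fits in heterozygotes and in 10 of 10 in wild type. The 2 highest wild type libraries with regular activity are numbers 2 and 5, which carry both Xist and Y-linked reads. Without them and wild type 4 at 3 months, the log2 fold change of Fos in wild type was -0.92 (edgeR adjusted p = 0.151) and 1 of 8 members, Junb, passed edgeR's test (log2 -1.45). That fit called 642 of all tested genes for exercise in wild type, against 1511 with all libraries. Fosb was then at log2 -1.31 (edgeR adjusted p = 0.0507), Atf3 at -1.11 (0.0930) and Jund at -0.46 (0.147).

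Fosb (ENSMUSG00000003545, chr7:19302696-19310051, minus strand), a relative of Fos that is also spliced to the long-lived isoform delta FosB, was measured here per gene and not per isoform. It had 7.20, 8.37, 7.41, 31.9 and 16.7 CPM in exercised heterozygotes, against 36.3, 26.7, 29.4, 31.3 and 23.4 CPM in heterozygotes with regular activity. In wild type it had 16.03, 17.7, 12.8, 17.4 and 21.5 CPM in exercised libraries, against 57.0, 43.1, 39.4, 30.5 and 65.0 CPM with regular activity. The wild type groups did not overlap (log2 -1.46 ± 0.35, edgeR adjusted p = 0.00802). In heterozygotes they overlapped through exercised heterozygote 4 (31.9 CPM), and Fosb did not pass edgeR's test (log2 -1.03 ± 0.35, edgeR adjusted p = 0.0656), whereas limma-voom (log2 -1.57, adjusted p = 0.000710) and DESeq2 (log2 -1.05, adjusted p = 0.0238) called it. Without that library and exercised wild type 1 it passed (log2 -1.60, edgeR adjusted p = 0.00221). Of the 20 alternatives, 5 called Fosb in heterozygotes, among them 1 of the 10 fits with 1 library left out.

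Jun (ENSMUSG00000052684, chr4:95049034-95052222, minus strand) and Jund (ENSMUSG00000071076, chr8:70698949-70700616, plus strand) had smaller log2 fold changes. Jun, a strong transactivator, had 136, 134, 154, 108 and 199 CPM in exercised heterozygotes, against 225, 236, 198, 238 and 175 CPM in heterozygotes with regular activity (log2 -0.55 ± 0.18, edgeR adjusted p = 0.0459). In wild type it had 144, 273, 209, 225 and 309 CPM in exercised libraries, against 339, 378, 348, 238 and 370.1 CPM with regular activity (log2 -0.53 ± 0.18, edgeR adjusted p = 0.0528). The log2 fold changes of the genotypes were close, the groups overlapped in both, and the edgeR adjusted p lay near 0.05 on either side of it. In wild type limma-voom (adjusted p = 0.00942) and DESeq2 (adjusted p = 0.0305) called Jun, and in heterozygotes edgeR did not without the filter on low counts (adjusted p = 0.120). Over all alternatives, Jun was called in 6 of 21 in wild type and in 11 of 20 in heterozygotes. Exons of Jun overlap the antisense gene Junos, which had a log2 fold change of -1.06 ± 0.46 in heterozygotes (edgeR adjusted p = 0.154) and -0.33 ± 0.43 in wild type (edgeR adjusted p = 0.739), from 745 counts over 30 libraries. Jund had 50.7, 44.7, 57.4, 60.4 and 61.5 CPM in exercised heterozygotes, against 75.9, 86.7, 68.3, 78.8 and 69.3 CPM in heterozygotes with regular activity, with no overlap (log2 -0.46 ± 0.15, edgeR adjusted p = 0.0439). In wild type it had 53.2, 60.4, 57.2, 55.3 and 87.9 CPM in exercised libraries, against 83.3, 88.0, 104.5, 70.3 and 89.5 CPM with regular activity (log2 -0.47 ± 0.15, edgeR adjusted p = 0.0372). Leaving out 1 library at a time kept the Jun call in heterozygotes in 3 of 10 fits and the Jund call in 4 of 10 in heterozygotes and 3 of 10 in wild type. The count of members that fell in heterozygotes was 2 without heterozygote 1, 2 or 4 with regular activity, and 3 without heterozygote 3 with regular activity or exercised heterozygote 1 or 2.

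Fosl2 (ENSMUSG00000029135, chr5:32135801-32157842, plus strand) and Fosl1 (ENSMUSG00000024912, chr19:5447547-5455946, plus strand), which lack the transactivation domain of Fos, did not pass edgeR's test in either genotype. Fosl2 had 34.7, 36.4, 37.7, 75.2 and 38.0 CPM in exercised heterozygotes, against 53.7, 42.6, 55.5, 45.7 and 48.1 CPM in heterozygotes with regular activity (log2 -0.14 ± 0.20, edgeR adjusted p = 0.752). In wild type it had 50.7, 43.4, 44.7, 39.6 and 56.2 CPM in exercised libraries, against 84.3, 62.7, 59.2, 58.4 and 59.4 CPM with regular activity (log2 -0.47 ± 0.20, edgeR adjusted p = 0.153). In wild type limma-voom (log2 -0.54, adjusted p = 0.0111) and edgeR on the compared groups alone (log2 -0.46, adjusted p = 0.0318) called Fosl2. Over all alternatives, Fosl2 was called in 3 of 21 in wild type and in 1 of 20 in heterozygotes. The wild type groups did not overlap, and in heterozygotes only exercised library 4 reached the regular-activity range. Fosl1 ranged from 0.484 to 2.31 CPM in exercised heterozygotes and from 0.701 to 1.39 CPM in heterozygotes with regular activity, and from 0.0635 to 1.80 CPM in exercised wild type and from 0.855 to 1.80 CPM in wild type with regular activity. Its log2 fold change was -0.02 ± 0.53 in heterozygotes (edgeR adjusted p = 0.989) and -0.39 ± 0.53 in wild type (edgeR adjusted p = 0.755), and the exons of Fosl1 overlap Ccdc85b on the opposite strand. Ccdc85b, with 5342 counts over 30 libraries, had a log2 fold change of -0.31 ± 0.21 in heterozygotes (edgeR adjusted p = 0.403) and -0.75 ± 0.20 in wild type (edgeR adjusted p = 0.0167). In all, 4 of 8 members had no overlap in heterozygotes (Fos, Junb, Jund and Atf3), where 4.02% of all tested genes were lower without overlap, and 4 of 8 in wild type (Fosb, Fosl2, Junb and Atf3), where 5.58% were.

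**Figure D2:**
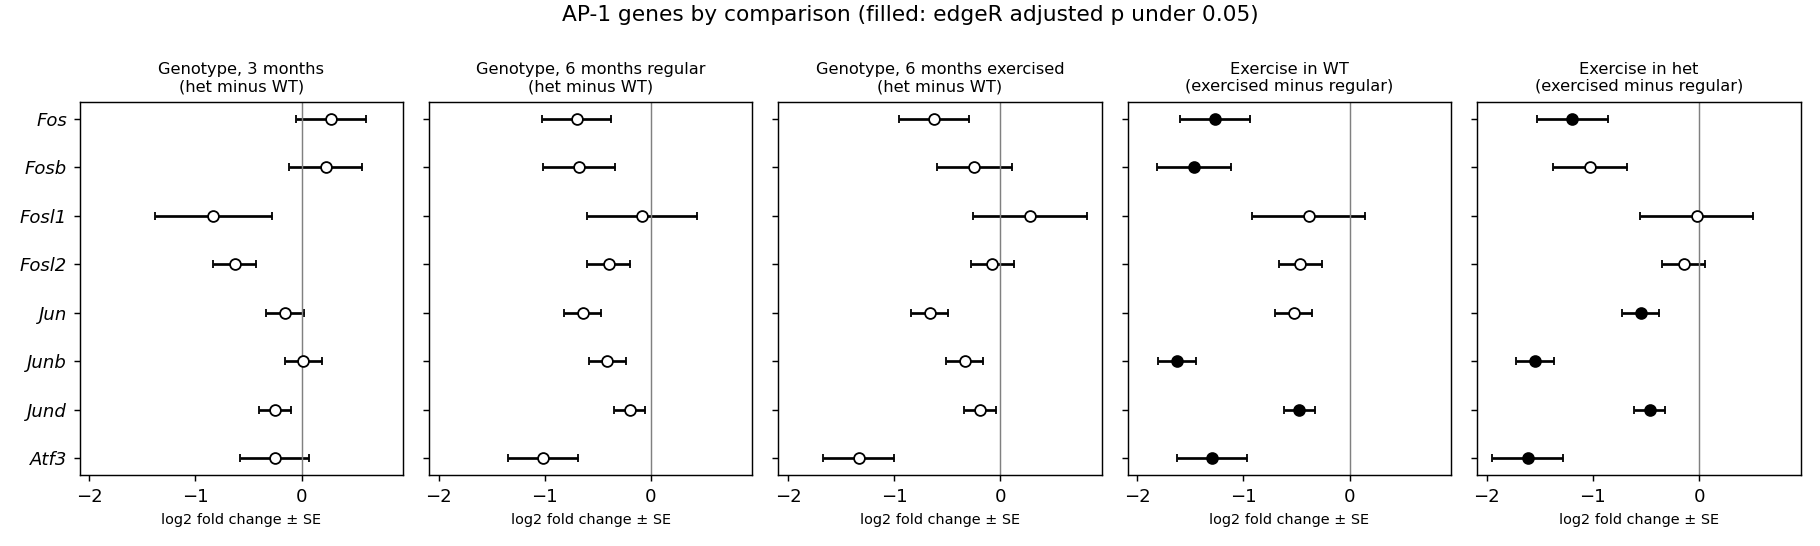
Log2 fold change of each AP-1 gene (rows) in 5 comparisons (panels), with bars of 1 SE from edgeR's fit over 30 libraries (5 libraries a group). Filled points passed an adjusted p of 0.05, and these are 5 genes in each exercise panel and 0 in each genotype panel.

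The share of reads from mitochondrial genes was 22.0 to 38.1% in exercised heterozygotes against 11.7 to 26.7% in heterozygotes with regular activity, and 20.8 to 46.9% in exercised wild type against 13.3 to 17.6% in wild type with regular activity. Small nuclear, nucleolar and other small RNA genes took 0.484 to 0.798% of counts in exercised heterozygotes against 1.19 to 1.58% in heterozygotes with regular activity, and 0.529 to 1.09% in exercised wild type against 1.22 to 1.80% in wild type with regular activity. With mitochondrial genes and the 10 most abundant other genes left out, 5 members were called lower in each genotype. Over the alternative fits, 617 to 2835 of all tested genes were called in either direction in heterozygotes and 642 to 2769 in wild type. The fibroblast markers summed to 97.8 to 625 CPM in exercised heterozygotes against 329 to 485 CPM in heterozygotes with regular activity, with 8 of 8 lower and 0 called, and to 87.8 to 306 CPM in exercised wild type against 173 to 203 CPM in wild type with regular activity, with 7 of 8 lower and 0 called. The macrophage and monocyte markers summed to 16.8 to 132 CPM in exercised heterozygotes against 53.3 to 107 CPM in heterozygotes with regular activity (9 of 9 lower, median log2 -0.80), and to 12.7 to 60.5 CPM in exercised wild type against 19.0 to 35.03 CPM in wild type with regular activity (5 of 9 lower, median -0.08). Of 6 pericyte and smooth muscle markers 6 were lower in heterozygotes and 4 in wild type, and of 9 endothelial markers 8 were lower in heterozygotes (median -0.46) and 7 higher in wild type (median 0.32). No marker of these types passed edgeR's test, while 2 of 10 myocyte markers rose in each genotype. The part of these shares and markers in the AP-1 differences was not tested.

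The log2 fold change with exercise was further from 0 for Junb than for Jun, and the makeup of AP-1 mRNA differed too. Jun over Junb, as a ratio of CPM per kb, was 1.77 ± 0.42 in exercised heterozygotes (1.53 to 2.52) and 0.89 ± 0.11 in heterozygotes with regular activity (0.781 to 1.04), and 2.25 ± 0.58 in exercised wild type (1.68 to 3.06) and 1.04 ± 0.10 in wild type with regular activity (0.894 to 1.13). The ranges did not overlap in either genotype, and this ratio was chosen after its values were seen and is given without a test. Jun made up 25.7 ± 3.1% of the summed CPM per kb of the 8 genes in exercised heterozygotes and 18.9 ± 1.5% in heterozygotes with regular activity, and 27.9 ± 2.0% in exercised wild type and 19.4 ± 1.4% in wild type with regular activity. Junb made up 15.0 ± 3.2% and 21.3 ± 0.9% in exercised and regular-activity heterozygotes, and 12.97 ± 2.97% and 18.8 ± 1.3% in exercised and regular-activity wild type. The sum over the 8 genes was 178 ± 26.2 CPM per kb in exercised heterozygotes and 358 ± 60.7 in heterozygotes with regular activity, and 264 ± 83.0 in exercised wild type and 546 ± 118 in wild type with regular activity. Jund stood above Junb in the group mean of both exercised groups, in 4 of 5 libraries each, whereas Junb stood above Jund in the 4 other group means.

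**Figure D3:**
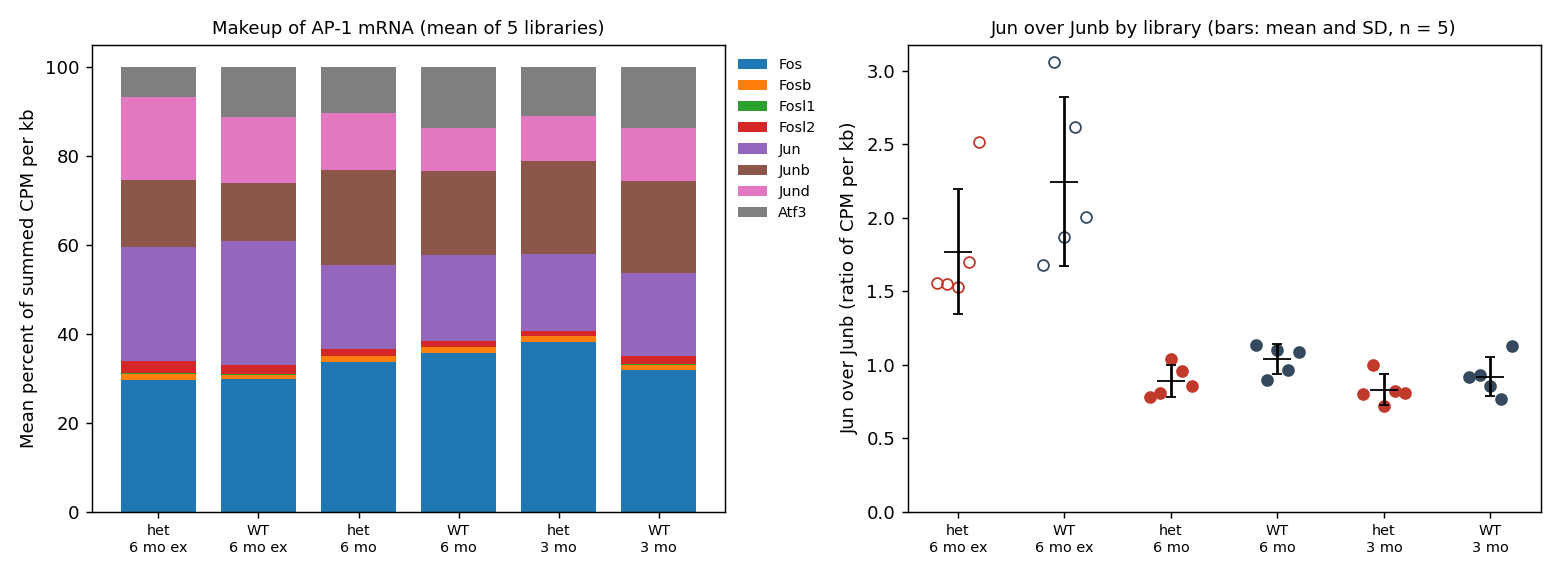
Left, mean share of each AP-1 gene in the summed CPM per kb (vertical axis, percent) in each group of 5 libraries. Right, Jun over Junb (ratio of CPM per kb) in each library, with open points for exercised ones and bars for the mean and SD of 5. All 10 exercised libraries lie at 1.53 or above, and all 10 regular-activity libraries of 6 months at 1.13 or below.

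The genotypes were compared within each age and activity, and these comparisons share libraries with those of exercise and age. At 6 months with regular activity 0 of 8 members passed edgeR's test, where 0.135% of all tested genes did, while 4 members had an unadjusted p under 0.05 (8.79% of all tested genes). DESeq2 called 0 and limma-voom called 2, Jun and Atf3, where limma-voom called 476 genes in all, against 21 by edgeR. Jun and Atf3 were each called in 2 of the 20 alternatives. All 8 log2 fold changes were negative, with a median of -0.53 beside 0.00 over all genes. Atf3 averaged 79.8 ± 16.03 CPM in heterozygotes and 161 ± 42.3 CPM in wild type (log2 -1.01 ± 0.33, edgeR adjusted p = 0.318), with no overlap between 95.6 CPM at most in heterozygotes and 99.4 CPM at least in wild type. Jun averaged 214 ± 27.3 CPM in heterozygotes and 335 ± 56.4 CPM in wild type (log2 -0.64 ± 0.18, edgeR adjusted p = 0.199), where its highest heterozygote (237.8 CPM) lay just under its lowest wild type (238.0 CPM). Fosl2 was the third member with no overlap (42.6 to 55.5 CPM in heterozygotes and 58.4 to 84.3 CPM in wild type; log2 -0.40 ± 0.20, edgeR adjusted p = 0.590), and 2.16% of all tested genes were lower and 1.86% higher without overlap. Fos (log2 -0.70 ± 0.33, edgeR adjusted p = 0.553), Fosb (-0.68 ± 0.34), Junb (-0.41 ± 0.17), Jund (-0.20 ± 0.15) and Fosl1 (-0.08 ± 0.52) overlapped. Without the libraries with Xist and Y-linked reads edgeR called 0 of 8 members and 4 of all tested genes. Over the 20 alternatives log2 fold changes ranged from -0.83 to -0.36 for Fos, -0.50 to -0.24 for Junb and -1.15 to -0.83 for Atf3.

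The fibroblast markers summed to 329 to 485 CPM in heterozygotes and 173 to 203 CPM in wild type, with 8 of 8 higher, and the macrophage and monocyte markers to 53.3 to 107 CPM in heterozygotes and 19.0 to 35.03 CPM in wild type, with 9 of 9 higher. The 5 erythroid markers were all lower (median log2 -1.27), and 9 of 9 endothelial and 6 of 6 pericyte and smooth muscle markers were higher. None of these markers passed edgeR's adjusted p of 0.05, and their part in the AP-1 values was not tested.

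In exercised mice 0 of 8 members passed edgeR's test between genotypes, where 0.404% of all tested genes did, and 2 had an unadjusted p under 0.05 (9.78% of all tested genes). DESeq2 and limma-voom each called 2, Jun and Atf3, where DESeq2 called 200 genes in all, the most of any alternative, against 63 by edgeR. Atf3 averaged 26.1 ± 7.0 CPM in exercised heterozygotes and 65.8 ± 29.1 CPM in exercised wild type (log2 -1.33 ± 0.34, edgeR adjusted p = 0.0891), and the groups overlapped through exercised wild type 1 at 20.5 CPM. Jun averaged 146 ± 33.6 CPM in exercised heterozygotes and 232 ± 63.0 CPM in exercised wild type (log2 -0.67 ± 0.18, edgeR adjusted p = 0.0968). Without exercised wild type 1 both passed, at edgeR adjusted p = 0.00918 for Atf3 and 0.0142 for Jun. Without exercised heterozygote 5 Jun alone passed, at edgeR adjusted p = 0.0311. With 1 library left out at a time, Atf3 was called in 1 of 10 fits and Jun in 2 of 10. The highest edgeR adjusted p of these fits was 0.285 for Atf3 and 0.327 for Jun, both without exercised heterozygote 4. Each gene was called in 4 of all 20 alternatives. Fos (-0.63 ± 0.33), Junb (-0.34 ± 0.18), Fosb (-0.24 ± 0.35), Jund (-0.19 ± 0.15), Fosl2 (-0.08 ± 0.20) and Fosl1 (0.28 ± 0.54) overlapped between genotypes, and so did Jun, where 0.828% of all tested genes were lower and 1.01% higher without overlap.

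At 3 months 0 of 8 members passed edgeR's test, where 0.192% of all tested genes did, and 1 had an unadjusted p under 0.05 (11.0% of all tested genes); DESeq2 and limma-voom called 0. That member, Fosl2, had 54.1, 59.9, 45.0, 43.8 and 56.7 CPM in heterozygotes, against 51.3, 79.9, 132, 78.6 and 59.8 CPM in wild type (log2 -0.63 ± 0.20, edgeR adjusted p = 0.208). Fos averaged 436 ± 169 CPM in heterozygotes and 360.0 ± 127 CPM in wild type, a log2 difference of 0.28 with an interval (about 2 SE either side) of -0.36 to 0.92. Junb averaged 222 ± 44.6 CPM in heterozygotes and 219 ± 41.2 CPM in wild type, a log2 difference of 0.02 with an interval of -0.32 to 0.35. Jun averaged 251 ± 29.7 CPM in heterozygotes and 280 ± 64.0 CPM in wild type, Jund 74.3 ± 16.3 and 88.5 ± 16.3 CPM, Atf3 117 ± 52.5 and 140.0 ± 38.1 CPM, Fosb 40.3 ± 13.5 and 34.5 ± 13.1 CPM, and Fosl1 0.578 ± 0.26 and 1.05 ± 0.53 CPM, in the same order. All 8 members overlapped between genotypes at this age, where 0.757% of all tested genes were lower and 0.642% higher without overlap.

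Whether exercise changed a member differently in the 2 genotypes was tested by an interaction. By edgeR 0 of 8 members passed, where 0.0128% of all tested genes did, 0 had an unadjusted p under 0.05 (4.91% of all tested genes), and DESeq2 and limma-voom called 0. The interaction of Junb was 0.08 on the log2 scale with an interval of -0.41 to 0.56, and that of Atf3 -0.32 with an interval of -1.23 to 0.59.

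Age was compared at regular activity, 6 months against 3 months, and 0 of 8 members passed edgeR's test in heterozygotes (3.43% of all tested genes did) or in wild type (0.860% did), with 0 at an unadjusted p under 0.05 in both (19.6% and 12.2% of all tested genes) and 0 called by DESeq2 or limma-voom. In heterozygotes 6 of 8 log2 fold changes were negative, led by Fos (-0.61 ± 0.33, edgeR adjusted p = 0.308) and Atf3 (-0.56 ± 0.33, edgeR adjusted p = 0.362), and Fosl1 was positive (0.96 ± 0.55, edgeR adjusted p = 0.340). In wild type 6 of 8 were positive, led by Fosb (0.45 ± 0.34, edgeR adjusted p = 0.642) and Fos (0.37 ± 0.33, edgeR adjusted p = 0.709). The interaction of genotype with age called 0 members by edgeR (0.00% of all tested genes), DESeq2 and limma-voom, and 1, Fos, had an unadjusted p under 0.05 (log2 -0.98 ± 0.46, edgeR adjusted p = 0.620; 8.04% of all tested genes had such a p). Over the 30 alternatives this log2 value of Fos ranged from -1.19 to -0.41. Deposited spike-in values follow age as well, so age and whatever differs between those sets of values cannot be told apart.

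Genes that work with AP-1 were described by lists. Of 26 tested immediate early genes outside AP-1, 10 fell with exercise in heterozygotes and 11 in wild type, and 0 rose in either, with median log2 fold changes of -0.81 and -0.76. Over all tested genes, 3.48% fell and 5.34% rose in heterozygotes, and 5.05% fell and 4.64% rose in wild type. Gadd45g, a growth arrest and DNA damage gene, averaged 17.8 ± 3.7 CPM in exercised heterozygotes and 50.7 ± 11.1 CPM in heterozygotes with regular activity (log2 -1.51 ± 0.22, edgeR adjusted p = 5.61e-05), and 21.8 ± 6.9 CPM in exercised wild type and 66.8 ± 13.4 CPM in wild type with regular activity (log2 -1.61 ± 0.22, edgeR adjusted p = 2.57e-05). Rhob, a small GTPase gene, had a log2 fold change of -0.83 ± 0.12 in heterozygotes (edgeR adjusted p = 2.32e-05) and -0.86 ± 0.12 in wild type (edgeR adjusted p = 1.94e-05). Of 19 genes that limit these signals or transcripts, 2 fell in heterozygotes and 3 in wild type and 0 rose, among them in both genotypes Dusp1, a MAP kinase phosphatase (log2 -0.78 ± 0.18, edgeR adjusted p = 0.00452 in heterozygotes; -0.70 ± 0.18, edgeR adjusted p = 0.00891 in wild type), and Zfp36, whose product speeds decay of AU-rich mRNAs (-0.98 ± 0.25, edgeR adjusted p = 0.0133 in heterozygotes; -1.49 ± 0.25, edgeR adjusted p = 0.000363 in wild type).

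Of 20 tested other bZIP genes, 2 rose and 1 fell in heterozygotes and 3 rose and 1 fell in wild type, with medians of 0.03 and 0.02. Atf7, a relative of Atf2, rose in both (log2 0.69 ± 0.14, edgeR adjusted p = 0.00112 in heterozygotes; 0.57 ± 0.14, edgeR adjusted p = 0.00622 in wild type). These counts and those that follow stand beside 5.34% of all tested genes that rose and 3.48% that fell in heterozygotes, and 4.64% and 5.05% in wild type. Of 20 upstream kinases 3 rose and 0 fell in heterozygotes and 2 rose and 3 fell in wild type. Of 13 upstream transcription factors 2 rose in each genotype and 0 fell, with Mef2c, a MADS-box factor of muscle, in both (log2 0.73 ± 0.12, edgeR adjusted p = 9.54e-05 in heterozygotes; 0.64 ± 0.12, edgeR adjusted p = 0.000420 in wild type). Of 14 heat shock genes 0 rose and 5 fell in heterozygotes, whereas 4 rose and 1 fell in wild type; that difference was tested gene by gene in the interaction, where 0 of the 14 passed edgeR's test. Of 23 tested textbook AP-1 target genes, 8 had a positive and 15 a negative log2 fold change in heterozygotes, with a median of -0.26, and 9 a positive and 14 a negative one in wild type, with a median of -0.07.

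**Figure D4:**
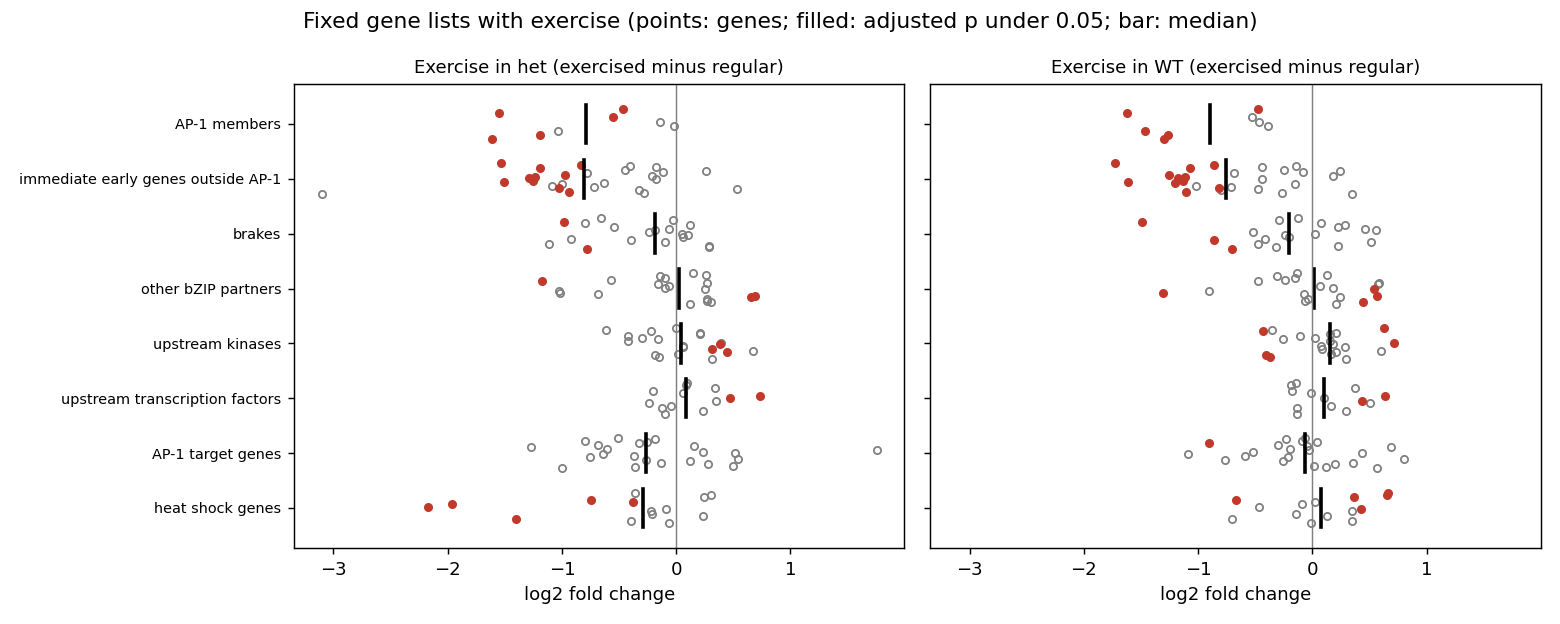
Log2 fold changes with exercise (horizontal axis) of the genes of each list (rows; 1 point a gene), in heterozygotes and in wild type. Filled points passed edgeR's adjusted p of 0.05 and bars give the list's median, which is -0.79 and -0.90 for AP-1 and -0.81 and -0.76 for the other immediate early genes.

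Across the 30 libraries members resembled each other to unequal degrees. The log2 CPM of Fos and Atf3 had a Pearson r of 0.91, that of Jun and Atf3 0.92 and that of Fos and Jun 0.87, and with group means removed these were 0.82, 0.83 and 0.82. Junb and Fosb had 0.75 as measured and 0.03 with group means removed. Fosl1 had values of -0.22 to 0.24 with the other 7. Of all other tested genes, those most like Fos were Btg2, an antiproliferative immediate early gene (0.95), Egr1, a zinc finger factor (0.92), and Gadd45g (0.88). Btg2 (0.93), Cyr61 (0.89) and Gadd45g (0.88) were most like Atf3, Sned1 (0.85), Cyr61 (0.84) and Btg2 (0.84) most like Jun, and Gadd45g (0.93), Imp3 (0.93) and Ndufaf8 (0.92) most like Junb. With group means removed, these 3 had 0.45, 0.32 and 0.34 with Junb, whereas the 3 nearest Fos had 0.72 to 0.87, those nearest Atf3 0.62 to 0.84 and those nearest Jun 0.58 to 0.76. As measured, values for the 3 genes nearest Fosb were 0.81 to 0.83, Fosl2 0.73 to 0.76, Jund 0.76 to 0.78 and Fosl1 0.66 to 0.74. After removal of group means they were 0.42 to 0.56, 0.56 to 0.70, 0.55 to 0.67 and 0.58 to 0.79 in the same order. These are descriptions over libraries that share groups, scaling and library sets.

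**Figure D5:**
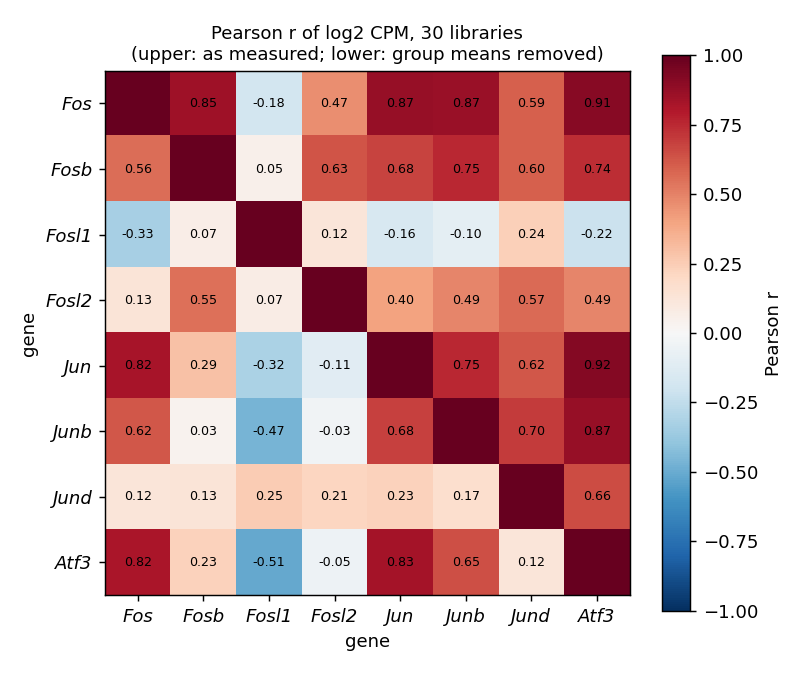
Pearson r of log2 CPM between AP-1 genes over 30 libraries, as measured above the diagonal and with group means removed below it (colour, r from -1 to 1). Fos, Jun and Atf3 keep values of 0.82 to 0.83 below the diagonal, and Junb and Fosb have 0.03.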

How the data were processed

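Cardiac myocyte RNA was stripped of ribosomal RNA before strand-specific, paired-end library preparation, per the labels' protocols. The tools named are HISAT2, featureCounts and Trim Galore and the build is mm10, per the submitters' processing notes; versions, annotation and strand setting are not given in the sources used here. The authors deposited raw counts per gene for all 30 libraries. From these, 52550 genes were kept and 23 spike-in entries set aside; 26 symbols turned into dates were restored from gene IDs. Gene models were GENCODE M21 (GRCm38).

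Counts were filtered with filterByExpr over 6 groups, scaled by TMM and fitted with edgeR 4.0.16 (robust quasi-likelihood, all 30 libraries, 24 residual degrees of freedom, R 4.3.3), with Benjamini-Hochberg adjustment over 15587 genes and a threshold of 0.05. Log2 CPM used a prior count of 2. SE is the log2 fold change divided by the square root of F. The 9 comparisons were genotype in 3 settings, exercise and age in each genotype, and both interactions. The fit was also run on simulated counts with known changes between heterozygotes and wild type at 6 months with regular activity. Genes were drawn independently there, without library differences shared between genes, so that run does not test the calls made here. Within groups, no pair of libraries agreed within sampling noise (chi-square per degree of freedom at least 17.4).

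Alternatives were DESeq2 1.42.0 size factors and Wald test, limma 3.58.1 voom with quality weights, no filter, a replicate block, only the compared groups, mitochondrial and 10 abundant genes left out, a threshold of 0.01 and each library left out; 3 sets of libraries left out were chosen after seeing the data. The members and lists were chosen with earlier results of these data known. Besides the 8 members and Dsp, the text names up to 2 genes per list and comparison with the smallest p and, for likeness, the 3 genes with the highest r. Prdx2, Ccdc85b and Junos were chosen after their values were seen, as genes whose exons overlap a member's. Of 156 list symbols 151 matched, and of 58 markers 58. Test calls of the AP-1 target list are not reported here.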

Additional observations from a re-analysis of the deposited data

Results flagged for a closer look

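In 4 of the 48 sets of a member and a group, 1 of the 5 libraries lay far from the others by Dixon's criterion (gap over range above 0.71), and chance alone flags about 1 set in 20. Fosl2 was 75.2 CPM in exercised heterozygote 4 and 34.7 to 38.0 CPM in the other exercised heterozygotes; the fibroblast markers of this library summed to 625 CPM, against 97.8 to 171 CPM in the other 4, and their part in the value was not tested. Fosl2 was 84.3 CPM in wild type 1 at 6 months with regular activity and 58.4 to 62.7 CPM in the other 4. Jun was lowest in wild type 4 of the same group, at 238.0 CPM against 339 to 378 CPM. Jund was 87.9 CPM in exercised wild type 5 and 53.2 to 60.4 CPM in the other 4.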

How the results depend on the processing

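In 1608 recomputed log2 fold changes of members, 92 had the opposite sign, and in 0 of these did either fit pass the threshold. The count of members called at 6 months with regular activity between genotypes was 2 with the compared groups alone and 2 with voom, and in exercised mice 2 with voom, 2 with DESeq2 and 1 without exercised wild type 1 and heterozygote 4. For exercise in wild type it was 2 at a threshold of 0.01 and 1 without the libraries with Xist and Y-linked reads. For exercise in heterozygotes it was 2 at a threshold of 0.01, 3 without the filter and 3 without libraries with high Xist. The cause was not tested; at 0.01 fewer genes pass by construction. With 1 library left out, the counts ranged from 0 to 2 between exercised genotypes, 4 to 6 for exercise in wild type, 2 to 5 for exercise in heterozygotes, and were 0 elsewhere. With the compared groups alone, Atf3 (edgeR adjusted p = 0.0515) and Jund (0.0505) missed the threshold in wild type.

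Deviations of same-numbered libraries from their group means had r from -0.25 to 0.15. Between exercised genotypes 3 of 5 libraries were most like the one of their own number, and 0 to 2 of 5 in the other comparisons. The labels do not say whether the numbers pair libraries, and these r values cannot exclude it. With the replicate block, 6 members were called for exercise in wild type, 5 in heterozygotes and 0 in each other comparison.

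Over all tested genes, the counts called ranged from 4 to 476 between genotypes at 6 months (21 in the text's fit), 13 to 200 in exercised mice (63), 0 to 145 at 3 months (30), 642 to 2769 for exercise in wild type (1511), 617 to 2835 in heterozygotes (1375), 28 to 328 for age in wild type (134), 341 to 1367 in heterozygotes (534), 0 to 13 for the interaction with exercise (2) and 0 to 23 with age (0). Leaving out 1 library gave 6 to 19, 25 to 89, 1 to 74, 1101 to 1357, 897 to 1423, 69 to 129, 181 to 668, 0 to 7 and 0 to 6 in the same order.

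Signs that turned, as log2 values, were these. Without high-Xist libraries, Fos was -0.055 and Fosb -0.033 between genotypes at 3 months, Fosl1 -0.35 between exercised genotypes, Fosl2 0.29 with age in wild type, Fosl2 0.089 and Jund -0.20 with age in heterozygotes, Fosb -0.21, Fosl1 -0.11 and Jun 0.15 in the interaction with exercise, and Fosl2 -0.20 and Jund -0.18 in that with age. Without libraries with Xist and Y-linked reads, Junb was -0.063 at 3 months, Fos -0.13, Junb -0.15 and Atf3 -0.11 with age in wild type, and Fos -0.27, Junb -0.10 and Jund -0.0090 in the interaction with exercise. With voom, Junb was -0.10 at 3 months, Fosl1 0.0025 at 6 months, Jund 0.056 with age in wild type, and Fosb -0.070 and Jund -0.017 in the interaction with exercise. Without exercised wild type 1 and heterozygote 4, that interaction was -0.16 for Fos, -0.15 for Fosb and -0.10 for Jund. Jund was 0.015 without the filter with age in wild type, and in the interaction with exercise -0.0037 without the filter, -0.026 with DESeq2 size factors, -0.025 with DESeq2's test and -0.018 without mitochondrial and abundant genes.

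With 1 library left out, the interaction with exercise ranged from -0.16 to 0.31 for Fos, -0.10 to 0.55 for Fosb, -0.092 to 0.70 for Fosl1, -0.19 to 0.080 for Jun, -0.036 to 0.22 for Junb and -0.078 to 0.12 for Jund, and that with age from -0.025 to 0.39 for Fosl2 and -0.026 to 0.16 for Jund. Fosl1 ranged from -0.027 to 0.40 with age in wild type, -0.48 to 0.12 with exercise in heterozygotes, -0.18 to 0.64 between exercised genotypes and -0.19 to 0.11 between genotypes at 6 months. Junb ranged from -0.012 to 0.19 with age in wild type and -0.063 to 0.11 between genotypes at 3 months, and Jund from -0.043 to 0.14 with age in heterozygotes and -0.11 to 0.056 in wild type. Depth limits Fosl1 most, with 49 to 131 counts a group.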
